A study of Homo sapiens and Homo sapiens
Mus musculus and Mus musculus with 9 samples.

Results

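The chromosome 19 zinc finger genes described here are the 237 protein-coding genes of human chromosome 19 whose symbol is ZNF followed by a number, out of 41713 genes in the deposited table. They were chosen by chromosome, gene type and symbol alone, with no measured value. For comparison, the table lists 233 protein-coding ZNF-number genes on other chromosomes and 19939 protein-coding genes in all.

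The study sequenced stranded mRNA libraries to ask how prostate cancer cells change beside osteoblasts. C4-2B cells are human (a bone-metastatic prostate cancer line) and MC3T3-E1 cells murine (a line of osteoblast precursors), both labelled wild type and grown in alpha-MEM with serum. The study's co-cultures in general used C4-2B cells that carried GFP from a lentivirus, which the sample labels do not mention. The 3 groups of 3 libraries each were C4-2B cultured alone, a mixed co-culture of 1 part C4-2B with 30 parts MC3T3-E1, and MC3T3-E1 cultured alone. The last group was not analysed here. In the table, 3 pipelines (Xenome, XenofilteR and Kallisto) each give 1 mean normalised count per gene, the authors' mean over the 6 libraries of C4-2B alone and the mixed co-culture. These pooled means carry no spread, so every mean and every level per kb below describes both groups together. The values of single libraries given further below were recovered from low means and carry no group label. No comparison between the groups was made, and no difference was tested.

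Most of these genes code for proteins with a KRAB domain at one end and a row of C2H2 zinc fingers at the other. The fingers read DNA, often in transposable elements, and the KRAB domain binds TRIM28, which brings in the histone methyltransferase SETDB1 and heterochromatin proteins. The family grew by tandem gene duplication along chromosome 19, so neighbours resemble each other and many members have no direct mouse counterpart. In such a family, and in a mixed culture of human and mouse cells, a short read may fit more than 1 gene.

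The 31-base sequence found in the most members starts in the stretch that codes for the linker between adjacent fingers and runs into the next finger. It was picked among all 31-base coding sequences (GENCODE 44, GRCh38) and is shown because reads from it look alike in the members that hold it, which are neighbours. Its capitals mark the 14-base sequence found in the most members.

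Linker and next finger: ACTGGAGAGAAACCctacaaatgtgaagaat

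The full 31 bases were in 33 of 236 members with an annotated coding sequence, all of them among the 36 neighbours from ZNF101 to ZNF726. They were also in 13 of 233 ZNF-number genes of other chromosomes (5.58%) and in 3 of 19309 other protein-coding genes. Only 3 of 22527 mouse genes held it in a coding sequence, Zfp273, Zfp708 and Zfp85, which are themselves zinc finger genes. The 14-base core was spread more widely, in 143 members (60.6%) and in 67 of the ZNF-number genes elsewhere (28.8%). It was also in 39 of 19309 other protein-coding genes (0.202%) and in 168 of 22527 mouse genes (0.746%). Both sequences were picked for being widespread among members, so the lower shares elsewhere are a description. ZNF208 carried 18 copies of the core, ZNF845 carried 16 and ZNF91 carried 15, while 93 members carried none.

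Promoters are shown for members with an entry among the RefSeq promoters (GRCh38.p14). They are those with the highest and lowest levels per kb of transcript with Xenome. Of the 237 members, 206 matched by symbol, and the first listed window of each was used. Each line gives the 250 bases before the annotated start, read 5′ to 3′ on the gene's own strand, with CpG dinucleotides in capitals. The first 4 are the highest, at chr19:36214856-36215105 (plus strand), chr19:56121296-56121545 (minus), chr19:9584505-9584754 (minus) and chr19:58228664-58228913 (plus).

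ZNF146: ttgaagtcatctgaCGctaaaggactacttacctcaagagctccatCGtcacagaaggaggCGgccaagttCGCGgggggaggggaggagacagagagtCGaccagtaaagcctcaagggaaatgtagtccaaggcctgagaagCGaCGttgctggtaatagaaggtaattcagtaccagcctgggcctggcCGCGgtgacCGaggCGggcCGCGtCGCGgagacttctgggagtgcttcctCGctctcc
ZNF787: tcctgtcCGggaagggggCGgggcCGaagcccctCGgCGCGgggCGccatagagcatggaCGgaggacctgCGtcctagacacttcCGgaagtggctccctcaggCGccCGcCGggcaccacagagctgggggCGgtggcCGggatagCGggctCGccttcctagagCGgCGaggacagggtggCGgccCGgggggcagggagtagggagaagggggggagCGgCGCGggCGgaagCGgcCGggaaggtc
ZNF121: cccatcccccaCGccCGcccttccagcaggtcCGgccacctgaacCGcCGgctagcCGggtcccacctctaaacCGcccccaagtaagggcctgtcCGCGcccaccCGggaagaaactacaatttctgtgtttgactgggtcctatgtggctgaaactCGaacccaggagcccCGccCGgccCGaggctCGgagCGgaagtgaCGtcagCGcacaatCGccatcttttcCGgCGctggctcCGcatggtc
ZNF544: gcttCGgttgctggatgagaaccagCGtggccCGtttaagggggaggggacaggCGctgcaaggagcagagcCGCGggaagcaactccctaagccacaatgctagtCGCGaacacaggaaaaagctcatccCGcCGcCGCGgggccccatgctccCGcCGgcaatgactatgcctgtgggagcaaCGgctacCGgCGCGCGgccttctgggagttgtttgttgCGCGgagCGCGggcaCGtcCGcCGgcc

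The 4 lowest are at chr19:22832041-22832290 (plus), chr19:47573149-47573398 (minus), chr19:9362763-9363012 (plus) and chr19:2841225-2841474 (plus). For ZNF541 the RefSeq start lies upstream of the gene's bounds in the table. With Kallisto the 4 were at 2.39, 0.117, 45.1 and 6.72 per kb, in the order shown. ZNF177 thus stood near the members' lower quartile with Kallisto (48.9 per kb).

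ZNF723: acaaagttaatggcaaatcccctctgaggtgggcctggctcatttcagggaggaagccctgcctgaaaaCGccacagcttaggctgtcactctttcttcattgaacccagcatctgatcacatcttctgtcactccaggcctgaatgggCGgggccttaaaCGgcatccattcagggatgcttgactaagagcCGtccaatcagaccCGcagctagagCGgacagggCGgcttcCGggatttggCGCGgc
ZNF541: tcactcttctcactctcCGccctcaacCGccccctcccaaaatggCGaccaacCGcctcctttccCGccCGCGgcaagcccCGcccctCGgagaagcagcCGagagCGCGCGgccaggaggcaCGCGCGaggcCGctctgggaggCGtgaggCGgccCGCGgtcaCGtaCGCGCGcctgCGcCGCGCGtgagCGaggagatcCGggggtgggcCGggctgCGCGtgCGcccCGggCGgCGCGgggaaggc
ZNF177: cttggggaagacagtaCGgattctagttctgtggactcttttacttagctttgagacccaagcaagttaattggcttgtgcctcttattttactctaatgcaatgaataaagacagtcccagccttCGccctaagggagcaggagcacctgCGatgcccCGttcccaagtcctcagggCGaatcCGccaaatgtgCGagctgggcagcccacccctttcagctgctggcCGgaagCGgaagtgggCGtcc
ZNF555: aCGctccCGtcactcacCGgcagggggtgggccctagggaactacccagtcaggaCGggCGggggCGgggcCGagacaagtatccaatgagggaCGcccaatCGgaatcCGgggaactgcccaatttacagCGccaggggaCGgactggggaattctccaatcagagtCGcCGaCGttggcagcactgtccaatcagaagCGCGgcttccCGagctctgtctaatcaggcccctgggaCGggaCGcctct

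The 4 highest held 17, 27, 22 and 26 CpG dinucleotides and the 4 lowest held 10, 39, 10 and 20, so the ranges overlapped. ZNF541, with the most CpG of any member promoter (39), was among the lowest in level. Over the 206 member promoters the median was 16 CpG, against 18 over 15068 protein-coding promoters. The 16 promoters of members with a Xenome mean below 10 had a median of 10 CpG. The 189 of members at 10 or more had a median of 16. The letters CCAAT, searched on both strands, were in 50.0% of member promoters, 43.2% of 190 promoters of ZNF-number genes elsewhere and 34.8% of all protein-coding promoters. GGGCGG was in 67.5%, 58.9% and 56.8%, and TATAAA in 1.94%, 4.21% and 9.19%. Among the 16 low members, 14 held CCAAT and 15 held GGGCGG, but many of them are neighbours derived from each other, so they are not independent. These matches are letters in a window and say nothing of whether a factor binds.

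Transcripts of nearly the whole family were found in these cultures. With Xenome, which sorts reads by species before alignment, 212 of the 236 listed members had a mean normalised count of at least 10 (89.8%). The corresponding shares were 90.7% of the ZNF-number genes elsewhere and 74.9% of all protein-coding genes. Levels per kb of the longest annotated transcript were low to moderate. The member median was 106 per kb with quartiles of 34.0 and 192, the ZNF-number genes elsewhere had a median of 165, and all protein-coding genes had a median of 135 with quartiles of 3.33 and 593. Of the members, 96 stood above the protein-coding median. With Kallisto, which lists more silent genes (19939 protein-coding genes against 17827 with Xenome), the order turned, with 125 per kb for members, 180 for ZNF-number genes elsewhere and 99.6 for protein-coding genes. Per kb of the median instead of the longest transcript, the 3 Xenome medians were 251, 401 and 333. The quartiles of the family lay closer together than those of protein-coding genes, as did those of the ZNF-number genes elsewhere (57.6 and 344).

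ZNF146, a short protein made almost wholly of fingers, stood apart at the top. It reached 2440 per kb (mean count 9224), higher than 94.6% of protein-coding genes. ZNF787, which also lacks a KRAB domain, followed at 966 per kb. ZNF121 was at 773, ZNF480 at 685, ZNF544 at 626 and ZNF317 at 565 per kb. The last of the 10 highest were ZNF561 at 511, ZNF714 at 492, ZNF260 at 482 and ZNF266 at 481 per kb, and the steps between these 4 are small. ZNF121, ZNF317, ZNF561 and ZNF266 are neighbours near one another, within the same stretch of the short arm. In Kallisto these 10 genes came within 0.956 and 1.10 times of their Xenome means on a common scale, so their levels did not hang on the pipeline.

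**Figure D1:**
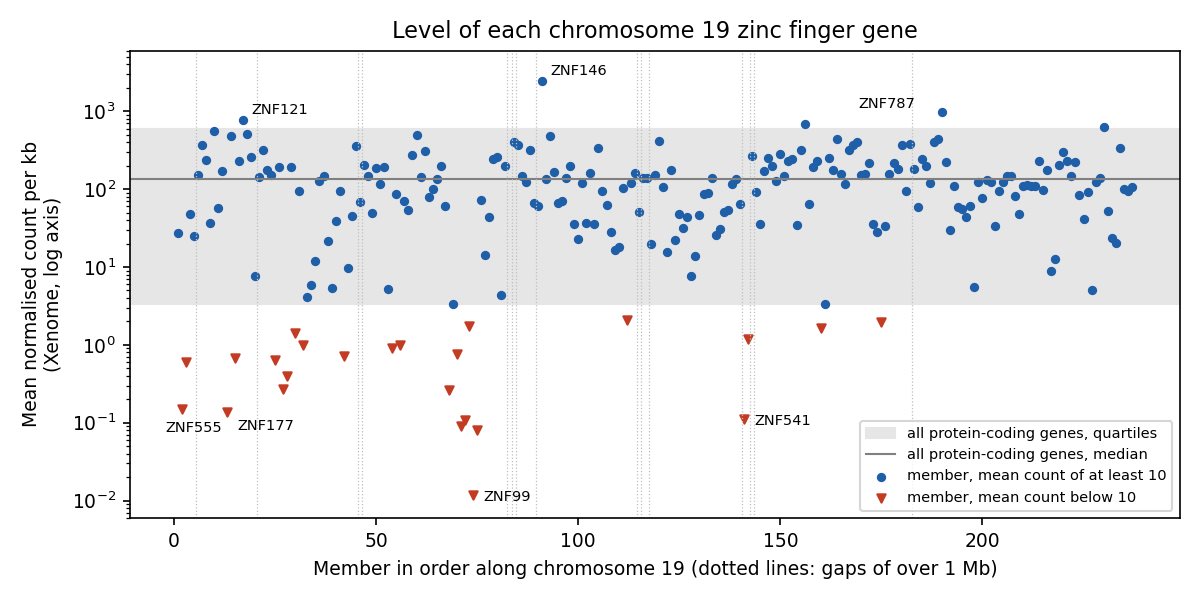
Mean normalised count per kb (Xenome, log axis) of each member, in order along chromosome 19; the band and line give the quartiles and median of all protein-coding genes. ZNF146 lies highest at 2440 per kb, and triangles mark the 24 members with a mean count below 10, several of them side by side.

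A list of 20 members with a described role was examined whatever their level, and 17 of them had a mean of at least 10 (median of the list 92.8 per kb). Repressors of young retrotransposons were present. ZNF91, which silences SVA elements, was at 243 per kb and ZNF93, which silences a class of LINE-1 elements, at 118 per kb. The near-identical pair ZNF587 and ZNF417, which act on HERV-K proviruses, stood at 221 and 83.7 per kb. Kallisto gave both more, with means of 2563 against 1523 for ZNF587 and 584 against 392 for ZNF417. About 50.5% and 49.5% of their 31-base sequences occur in other human genes. Their counts, and how reads were split within the pair, are therefore uncertain. Genes on the opposite strand overlap 33.2% of the exon length of ZNF587, and genes on the same strand 6.75%. For ZNF417 the overlap on the same strand is 9.48%. How much sequence the pair shares with each other was not measured. ZNF808, which holds back transposable elements in early pancreas development, was at 251 per kb and ZNF649 at 171 per kb.

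Among members with regulatory roles, ZNF331, an imprinted gene, reached 376 per kb. ZNF675, an inhibitor of TRAF6 signalling, was at 256 per kb, and ZNF420, a repressor of p53-driven apoptosis genes, was at 159 per kb. ZNF274, which binds the 3′ ends of other zinc finger genes and recruits SETDB1 there, was at 138 per kb. ZNF224, a KRAB repressor first described at the aldolase A promoter, was at 47.1 per kb (mean count of 188 with Xenome and 344 with Kallisto), with 42.4% of its exon length overlapped by genes on the opposite strand.

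Several genes of the list are known for promoter methylation in tumours, ZNF331 among them. Of the others, ZNF132 was at 102 per kb, close to the member median, and ZNF382 at 66.6, ZNF582 at 29.9, ZNF671 at 12.8 and ZNF154 at 8.82 per kb. ZNF671 had a mean count of 37.2 with Xenome, 37.2 with XenofilteR and 32.9 with Kallisto. ZNF154 stood at 60.9 with Xenome and 118 with Kallisto. No methylation was measured here.

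The quiet end of the family included, with Xenome, a run of neighbours. With Xenome, 24 members had a mean below 10 and 8 of these a mean below 1. All 24 were also below 10 with XenofilteR, which removes mouse reads after alignment. A mean of at least 1 was reached by 228 of 236 members with Xenome, 230 of 236 with XenofilteR and 235 of 237 with Kallisto. ZNF536, a neural gene with no tandem relatives, was listed by Kallisto only, at 3.13. The longest run of neighbours below 10 spans chr19:22179089-22858667 and holds ZNF676 (mean 2.27), ZNF729 (0.347), ZNF98 (0.250), ZNF492 (7.35), ZNF99 (0.0938) and ZNF723 (0.150). The next 2 genes on one side, ZNF208 and ZNF257, were at 2.41 and 13.1, which makes 8 neighbours in a row below 50 with Xenome. Kallisto did not show either run whole. It gave 24.5 for ZNF676, 56.6 for ZNF492, 110 for ZNF99 and 86.5 for ZNF208. For ZNF729, ZNF98, ZNF723 and ZNF257 it gave 1.80, 0.141, 4.46 and 33.3. ZNF208 and ZNF676 lie at loci associated with telomere length. The members closest to the minimum of 10 were ZNF257 (13.1), ZNF135 (16.8) and ZNF20 (17.5) above it, and ZNF534 (8.66), ZNF665 (8.26) and ZNF492 (7.35) below it.

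Split wherever neighbours lay more than 1 Mb apart, the 237 members fell into 16 stretches, and 7 stretches of at least 15 genes held 218 of them. This split was made after the values were seen. The stretch from ZNF557 to ZNF846 (15 genes) had the highest median of these 7, at 230 per kb, and the one from ZNF175 to ZNF331 (39 genes) followed at 177. The largest, from ZNF628 to ZNF446 near the end of the long arm, held 55 genes with a median of 109 per kb and none below a mean of 10. The lowest was the stretch from ZNF653 to ZNF791 (25 genes), at 38.5 per kb with 6 genes below 10. The 36 genes from ZNF101 to ZNF726, on both sides of the quiet run, had a median of 71.2 per kb and 9 genes below 10, yet also ZNF714 at 492. Every one of these 7 stretches held levels from at most 7.64 to at least 363 per kb, so single genes within a stretch differed far more than the stretches' medians.

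The pipelines placed the family's reads differently. Xenome and XenofilteR, which share the aligner and the counting step, agreed within 0.969 and 1.03 times for all 194 members with a Xenome mean of at least 50. Kallisto assigns reads to transcripts of both species at once and can split a read between copies. To set it beside Xenome, each gene's ratio was divided by the median ratio of protein-coding genes (1.02), with a mean of at least 50 in both. The median relative ratio was 1.10 over 194 members, 1.02 over 200 ZNF-number genes elsewhere and 1.000 over 11580 protein-coding genes. The relative ratio was above 1, by construction the median of protein-coding genes, for 157 members. Its quartiles were 1.02 and 1.25 for members, 0.982 and 1.14 for ZNF-number genes elsewhere and 0.975 and 1.09 for protein-coding genes. The ratio was above 1.5 for 24 members (12.4%, against 11.0% of ZNF-number genes elsewhere and 9.37% of protein-coding genes). Below 0.67 were none of the members, 1 of the ZNF-number genes elsewhere and 0.717% of protein-coding genes. The 95th percentile of the ratio was 2.03 for members, 2.05 for ZNF-number genes elsewhere and 2.19 for protein-coding genes.

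ZNF66 had the highest ratio, 9.77, with a mean of 320 in Xenome and 3190 in Kallisto. ZNF57 (93.3 and 377), ZNF233 (91.4 and 316) and ZNF497 (81.2 and 279) followed with ratios of 3.97, 3.39 and 3.38. The lowest ratios were closer to 1. ZNF132 was at 0.801, ZNF444 at 0.816, ZNF573 at 0.851 and ZNF528 at 0.860. ZNF57 had 75.2% of its exon length overlapped on the opposite strand. ZNF497 had 36.3% on the opposite and 24.0% on the same strand. ZNF66 and ZNF132 had no overlapped exon, and 34.9% and 1.54% of their 31-base sequences occur in other human genes. The part of overlaps and shared sequence in these ratios was not tested.

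**Figure D2:**
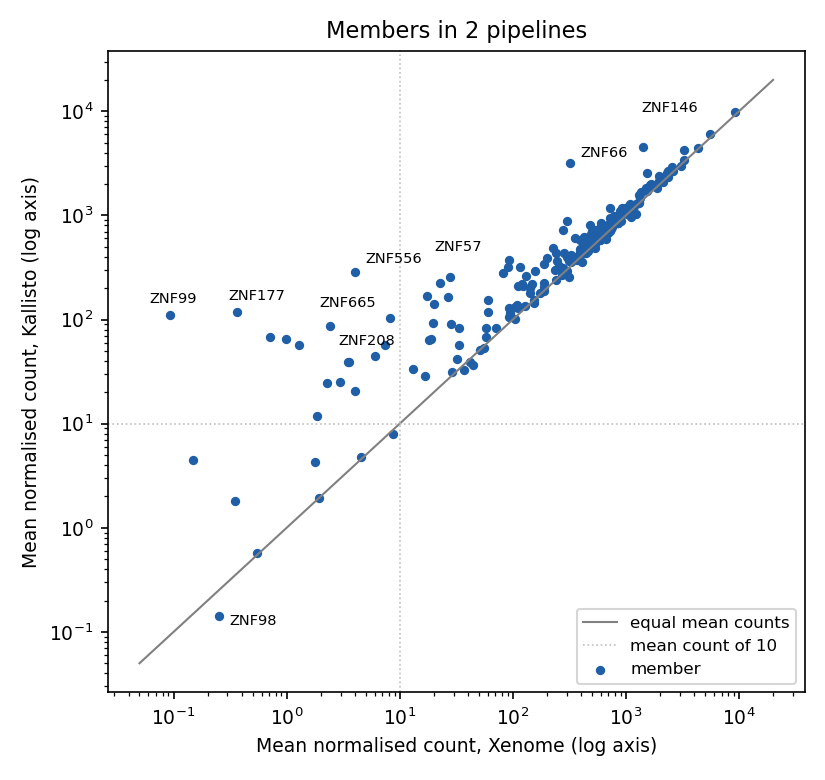
Mean normalised count of each member with Xenome (horizontal) and Kallisto (vertical), both on log axes, with the line of equal means and dotted lines at 10. Members depart from the line mostly upwards, as ZNF66 (320 against 3190) and ZNF99 (0.0938 against 110) do.

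The gap was widest among the quiet members, which the ratio above leaves out. Of the 24 members below 10 with Xenome, 16 had at least 10 (66.7%) and 9 at least 50 (37.5%) with Kallisto. These genes were picked for a low Xenome value, so a higher value elsewhere is in part built in. Of the ZNF-number genes elsewhere below 10 with Xenome, 11 of 21 (52.4%) also had at least 10 with Kallisto. For protein-coding genes it was 1516 of 4480 (33.8%). At least 50 was reached by 5 of these ZNF-number genes (23.8%) and 546 of these protein-coding genes (12.2%). Of the 212 members at 10 or more with Xenome, none fell below 10 with Kallisto. That was rare elsewhere too, at 1 of 206 ZNF-number genes (0.485%) and 104 of 13347 protein-coding genes (0.779%). ZNF556 was at 4.01 with Xenome and 288 with Kallisto, ZNF177 at 0.363 and 118, ZNF99 at 0.0938 and 110, ZNF665 at 8.26 and 104, and ZNF208 at 2.41 and 86.5. The levels of these genes therefore depended on the pipeline, and which value is nearer to their expression was not tested. The other 8 were low in all 3 pipelines. They include ZNF541, a testis gene (0.546, 0.546 and 0.572 in Xenome, XenofilteR and Kallisto), ZNF560 (1.93 in each) and ZNF98 (0.250, 0.159 and 0.141).

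Members shared more sequence with other human genes than the other groups did, whereas for mouse the order depended on the length compared. Over the 237 members, a median of 13.4% of the distinct 31-base sequences of a gene's transcripts (either strand) occurred in transcripts of another human gene. The median was 7.35% for ZNF-number genes elsewhere and 4.72% for protein-coding genes. The median share found in mouse transcripts (GENCODE M21) was 0.384% for members, 0.501% for ZNF-number genes elsewhere and 0.502% for protein-coding genes, and 10.5%, 10.3% and 20.4% of the groups shared none. At 25 bases the medians were 1.73%, 1.73% and 1.29%. At 50 bases, the length of the sequenced reads, 215 of 237 members (90.7%) shared no sequence with mouse, against 62.2% and 61.5% of the same groups.

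The members with the largest shares lay over other gene models. ZNF781 had the largest share (95.7%), and release 44 lists a further gene model of that name over 97.2% of its exons. ZNF177 (88.2%) lies within the read-through gene ZNF559-ZNF177, which covers 90.6% of its exons, and ZNF625 (84.1%) within ZNF625-ZNF20, which covers 83.2%. ZNF709 followed at 78.8%, with 79.4% of its exons overlapped on the same strand. Members with no overlapped exon shared sequence too, as ZNF543 (13.1%) and ZNF557 (9.79%) did, and the origin of shared sequence was not examined. Reads of such genes fit more than 1 gene model, so their counts are uncertain in each pipeline. At the other end, ZNF296, ZNF541 and ZNF784 shared no 31-base sequence with another human gene. The largest shares with mouse were 3.73% for ZNF536, 3.10% for ZNF723 and 2.95% for ZNF865, and ZNF865, with 0.268% shared with human genes, had means of 742, 741 and 742 in the 3 pipelines.

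Across the 194 members, the Kallisto to Xenome ratio went with the share of sequence in other human genes (Spearman rho of 0.59) and not with the share in mouse (rho of 0.05). The rho was 0.30 with the share of exon length overlapped by other genes on the same strand and 0.22 with that on the opposite strand, and overlapping gene models add to the human share. These are descriptions across genes, which share libraries and in part reads and are not replicates. The 24 members with a ratio above 1.5 had a median human share of 31.05% (range 6.37 to 72.0%) and the remaining 170 had one of 11.78% (range 0 to 56.2%). Exons overlapped those of another gene by at least 10% on the same strand in 8 of the 24 and 16 of the 170, and on the opposite strand in 6 and 18. Members with a ratio above 1.5 at a low share included ZNF233 (3.39 at 6.37%), ZNF471 (1.69 at 6.59%) and ZNF154 (1.89 at 7.34%). The rho with the level per kb was -0.43. What sets the ratio was not tested.

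**Figure D3:**
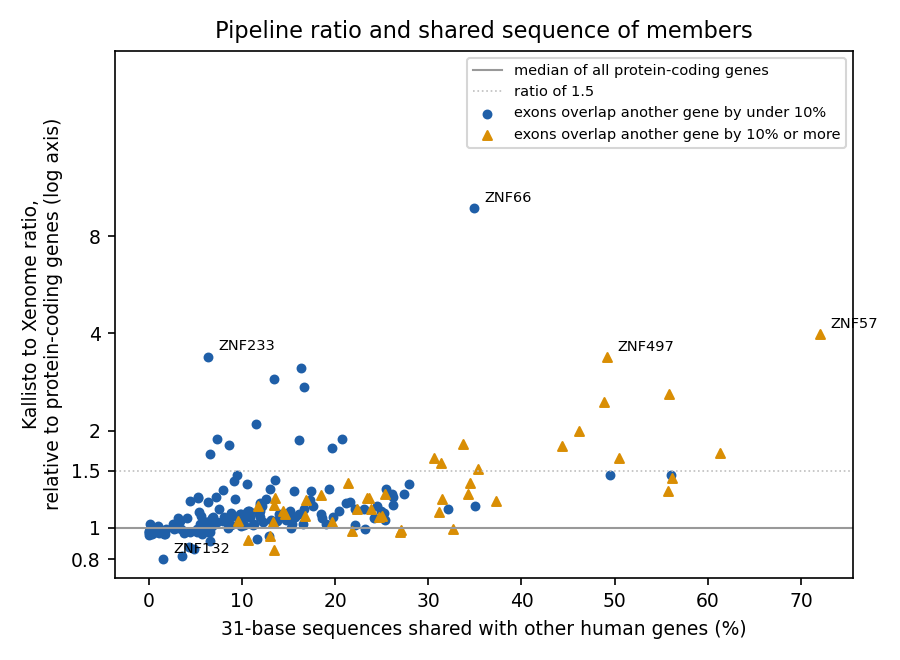
Kallisto to Xenome ratio of the 194 members with a mean of at least 50 in both, relative to protein-coding genes (log axis), against the percent of their 31-base sequences found in other human genes. Triangles mark members whose exons overlap those of another gene by at least 10%; the ratio was higher at larger shares (rho 0.59), with ZNF66 at 9.77.

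For members with a low mean, the reads of the single libraries could be recovered. A mean is the sum over 6 libraries of whole reads divided by each library's size factor, itself divided by 6, and for 42 of 42 members with a Xenome mean up to 50 exactly 1 set of reads gave the mean. The 6 size factors were 5.926, 5.314, 4.862, 0.427, 0.145 and 0.109, so 1 read added from 0.0281 to 1.53 to a mean. The solved libraries bear no label and are numbered 1 to 6 by size factor. They were placed in neither group, and only each library's value is given.

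ZNF575 had 227, 253, 236, 15, 9 and 4 reads in libraries 1 to 6, which are normalised counts of 38.3, 47.6, 48.5, 35.2, 62.2 and 36.7. Its highest value, in library 5, rests on 9 reads. ZNF837 had 274, 264, 198, 16, 10 and 1 reads, and its normalised counts ran from 9.18 in library 6 to 69.1 in library 5. ZNF671 had 181, 159, 147, 28, 3 and 5 reads, with 30.5, 29.9 and 30.2 in libraries 1 to 3 and 65.6, 20.7 and 45.9 in libraries 4 to 6. The 3 libraries with large size factors lay close together for these genes, and the other 3 scattered above and below them.

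ZNF442 had 203, 170, 114, 16, 4 and 5 reads, with normalised counts between 23.4 and 45.9. ZNF730 had 244, 246, 213, 9, 3 and 3 reads. Its normalised counts were 41.2, 46.3 and 43.8 in libraries 1 to 3 and 21.1, 20.7 and 27.6 in libraries 4 to 6. The values in libraries 5 and 6 rest on 3 reads each, the floor given below. Over the 42 members, libraries 1 to 6 held 3395, 3229, 2855, 251, 60 and 58 reads, or summed normalised counts of 573, 608, 587, 588, 414 and 533. Libraries 4, 5 and 6 had no read for 11, 19 and 21 of the 42 members. A floor of 3 reads stands for a normalised count of 7.03, 20.7 and 27.6 in these libraries. Values below these floors, such as that of ZNF837 in library 6, rest on 1 or 2 reads and set no order between libraries, and floors cover counting error only. In the quiet run, ZNF99 rested on 1 read in each of libraries 1 to 3, ZNF98 on 3, 2 and 3 reads and ZNF723 on 2, 3 and 0, with no read in libraries 4 to 6. ZNF208 had 20, 24 and 32 reads in libraries 1 to 3 and none in libraries 4 to 6.

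**Figure D4:**
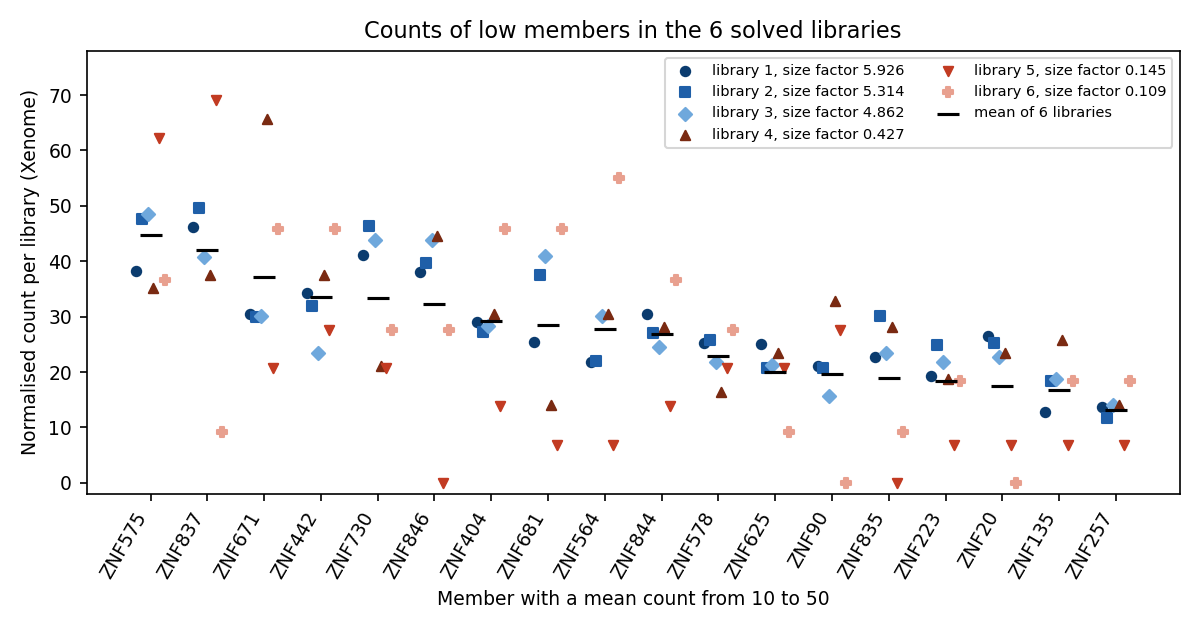
Normalised count (Xenome) of the 18 members with a mean from 10 to 50 in each of the 6 solved libraries, with the mean as a bar. Libraries 1 to 3 lie close together and libraries 4 to 6, where 1 read is worth 2.34 to 9.18 normalised counts, scatter widely, as in ZNF837 from 9.18 (1 read) to 69.1 (10 reads).

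The partners through which KRAB zinc finger proteins act were examined beside the members. All 19 partner genes reported here stood above the member median and the protein-coding median per kb (median of the 19 genes 894), and 5 stood above ZNF146. The list held further genes that are not reported, so these counts cover the 19 alone. TRIM28, the corepressor that KRAB domains bind, was at 6421 per kb, which is 60.7 times the member median. SETDB1, the H3K9 methyltransferase, was at 502 per kb and its stabilising partner ATF7IP at 297. The heterochromatin proteins CBX3, CBX1 and CBX5 were at 9422, 3694 and 1773 per kb. The maintenance methyltransferase DNMT1 was at 2017 and UHRF1, which guides it, at 675 per kb (1178 with Kallisto).

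Of the HUSH silencing complex and its associates, MPHOSPH8 was at 988, MORC2 at 762, PPHLN1 at 586 and TASOR at 442 per kb. ATRX and DAXX, which place histone H3.3 in heterochromatin, were at 868 and 1323 per kb. Of the remodelling and deacetylase subunits, HDAC1 was at 4035, HDAC2 at 894 and SMARCAD1 at 450 per kb. CHD4 was at 188 per kb with Xenome and 2659 with Kallisto, so its place in the order depended on the pipeline. SUMO2, whose product is attached to TRIM28, was at 2896 per kb (4396 with Kallisto).

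**Figure D5:**
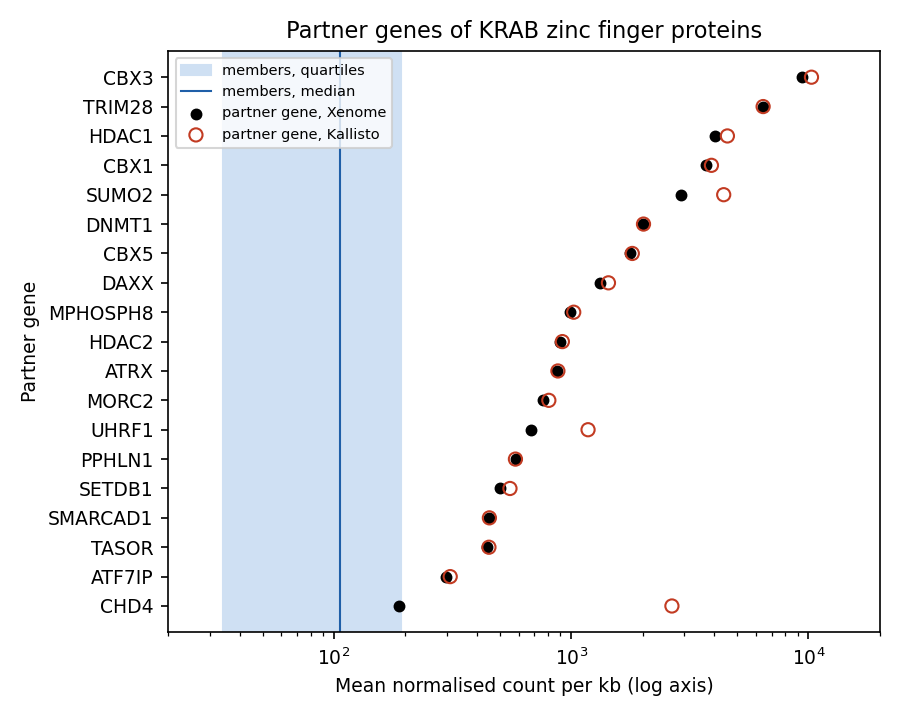
Mean normalised count per kb (log axis) of 19 partner genes with Xenome (filled) and Kallisto (open), beside the quartiles (34.0 to 192) and median (106) of the members. CBX3 is highest at 9422 and CHD4 is the gene whose pipelines lie farthest apart.

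Prostate markers were abundant, with KLK3 at 18889, FOLH1 at 9164 and HOXB13 at 3466 per kb, and the luminal keratins KRT18 and KRT8 were at 4447 and 2727 per kb. Of the osteoblast markers, ALPL, SP7 and SPP1 were at 0.0406, 0.315 and 0.161 per kb, IBSP at 1.75 and BGLAP at 4.06. COL1A1 was at 572 and RUNX2 at 69.9 per kb, and COL1A2 had a mean of 45.0 with Xenome and 222 with Kallisto. How far mouse reads entered the means of zinc finger genes was not tested.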

How the data were processed

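Human reads were separated by the authors in 3 ways: Xenome before HISAT2 alignment to GRCh38, XenofilteR after alignment to GRCh38 and GRCm38, both counted with featureCounts, and Kallisto on joined human and mouse transcriptomes. Tool versions and the GENCODE release are not given in the sources used here. The deposited table gives for each pipeline the authors' mean of normalised counts (counts divided by DESeq2 size factors) over 6 libraries. It also holds 15 columns of the authors' own comparison of mixed co-culture with C4-2B alone (log2 fold change, its standard error, Wald statistic, p-value and adjusted p-value), which were not used here. No values per library are given, so no test was run and the planned edgeR test was not needed.

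Of 41734 rows, 21 repeats of a gene were dropped. The rule for the members used no measured value, but the rule, the lists and the settings were chosen with earlier results of these data known. Means were divided by the longest annotated transcript in kb (GENCODE 44, GRCh38). Pipelines were compared for genes with a mean of at least 50 in both. Distinct sequences of 31, 25 and 50 bases were matched on either strand to other human genes and to GENCODE M21 mouse transcripts. The 250 bases before each start came from RefSeq (GRCh38.p14). Coordinates are those of the table, on GRCh38.

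Whole reads were solved from Xenome and XenofilteR means up to 50 by exhaustive search. Each of 20014 (Xenome) and 19873 (XenofilteR) genes with a mean below 10 had 1 solution. The labels give a minimum sequencing depth that precedes the separation of species, and the human reads of each library are known only through these size factors. The genes named are the 10 highest per kb, 20 with a described role, the 4 highest and 4 lowest pipeline ratios, the 5 highest solved members, 3 on each side of a mean of 10, and those with the largest shared sequence (4 with human, 3 with mouse). Other names were chosen after their values were seen. The partner and marker lists held further genes that are not reported here, left out whatever their values. Computations were run in python 3.11.15 with numpy 2.4.6, pandas 2.3.3, numba 0.67.0 and matplotlib 3.10.9. The alternatives were another pipeline, minimum, gene length, sequence length, a wider symbol rule and leaving out solved libraries.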

Additional observations from a re-analysis of the deposited data

How the results depend on the processing

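The count of members with a mean of at least 10 (212) stayed between 194 and 228 with XenofilteR, with Kallisto, with a minimum of 1 or 50 and with the 9 further ZNF symbols of chromosome 19 (219). The median per kb (106) was 106 with XenofilteR, 125 with Kallisto, 251 with the median transcript length, 120 over members with a mean of at least 10 and 78.8 with the union of exons, the last chosen after the data were seen. With Kallisto the members' median lay above that of protein-coding genes (99.6), and with Xenome below it (135). The median relative ratio (1.10) was 1.11 with a minimum of 10, 1.11 against XenofilteR and, chosen after the data were seen, 1.08 without members whose exons overlap another gene's. The median share with mouse (0.384%) was 1.73% at 25 bases (1.29% for protein-coding genes) and 0% at 50 bases, and that with other human genes (13.4%) was 18.3% and 6.18%. All 42 members were also solved with XenofilteR. Among them, 18 had a mean of at least 10, and 18 to 19 when each solved library was left out in turn (chosen after the data were seen), since ZNF534 passed without library 5, without library 6 or over libraries 1 to 3 alone (19). Leaving out a replicate was not possible for the other members, because only pooled means are given. No paired analysis was possible because no result comes from a test and the solved libraries carry no replicate number. Depth limits the low members, since 1 read of library 6 adds 1.53 to a mean.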

Other observations

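The 6 solved size factors fell into separate sets, 5.926, 5.314 and 4.862 on one side and 0.427, 0.145 and 0.109 on the other. For XenofilteR they were 5.933, 5.319, 4.871, 0.426, 0.144 and 0.109. Libraries 4 to 6 carried a median of 46.2% of the mean of the 42 solved members. Of these members, 9 had no read in libraries 4 to 6 and 5 had at least 3 reads in each of them, while 41 had a read in each of libraries 1 to 3. A pooled mean of a quiet zinc finger gene can therefore rest on a few reads of the libraries with small size factors, which held few human reads, as for ZNF491, whose mean of 1.87 came from 3, 7, 1, 0, 0 and 1 reads. In relative terms, XenofilteR and Xenome differed most among the quiet members, with means of 1.86 and 0.710 for ZNF439 and 1.38 and 0.987 for ZNF69. The gap was 1 read of library 5 for ZNF439 and 1 read of library 4 for ZNF69. Further means were 0.159 and 0.250 for ZNF98, 0.0940 and 0.150 for ZNF723, 0.0656 and 0.0938 for ZNF99 and 0.253 and 0.347 for ZNF729.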
